A study of Mus musculus with 8 samples.

Results

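The mitosis and spindle genes followed here are 47 genes that act in G2 and M phase, taken by name from the 54532 genes listed in the count table. Their expression was measured by QuantSeq 3′ mRNA sequencing, which reads the end of each transcript, in 8 libraries of mouse intestinal organoids. Of these, 4 libraries came from control organoids and 4 from organoids treated with RANKL, the TNF-family ligand of the receptor RANK, and the comparison asks how the treatment moved the mitotic genes. The organoids were grown from crypts in a medium with EGF, Noggin and R-spondin, which both groups shared. The labels give neither the dose nor the duration of RANKL for these libraries, nor the strain, sex or age of the animals.

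Mitosis is driven by the kinase Cdk1 bound to cyclin B, and executed by the Polo and Aurora kinases, by the kinetochores that tie chromosomes to microtubules, and by kinesin motors that build the spindle and divide the cell. The spindle checkpoint holds the anaphase promoting complex, a ubiquitin ligase, in check until each kinetochore is attached. Most of these genes are transcribed in G2 and M phase and shut down outside it, so that their RNA follows dividing cells. In the intestine the dividing cells sit in the crypts, as stem cells and transit-amplifying cells, and organoids keep such crypt domains.

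With RANKL, a minority of these genes fell and none rose. Among the 46 members that passed the filter on low counts, 9 fell (19.6%, against 12.4% of all 9971 genes tested) and 0 rose (against 13.6%) at an adjusted p under 0.05 in edgeR's quasi-likelihood test. The genes that fell were the kinetochore subunits Ndc80 and Spc24, the motors Kif11 and Kif20b, and the checkpoint genes Ttk and Bub1b. The condensin subunits Smc2 and Smc4 and the proliferation antigen Mki67 also fell. The remaining 37 members did not pass the threshold, among them Cdk1, both B cyclins and Aurka. At an unadjusted p under 0.05, 17 of the 46 were lower (18% of all genes tested were) and 3 were higher (18.3% of all). DESeq2 called 7 lower and 0 higher, and limma-voom called 8 lower and 0 higher. The member left out by the filter was Cdc25c, a phosphatase that activates Cdk1, with 2 to 40 reads in a library.

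**Figure D1:**
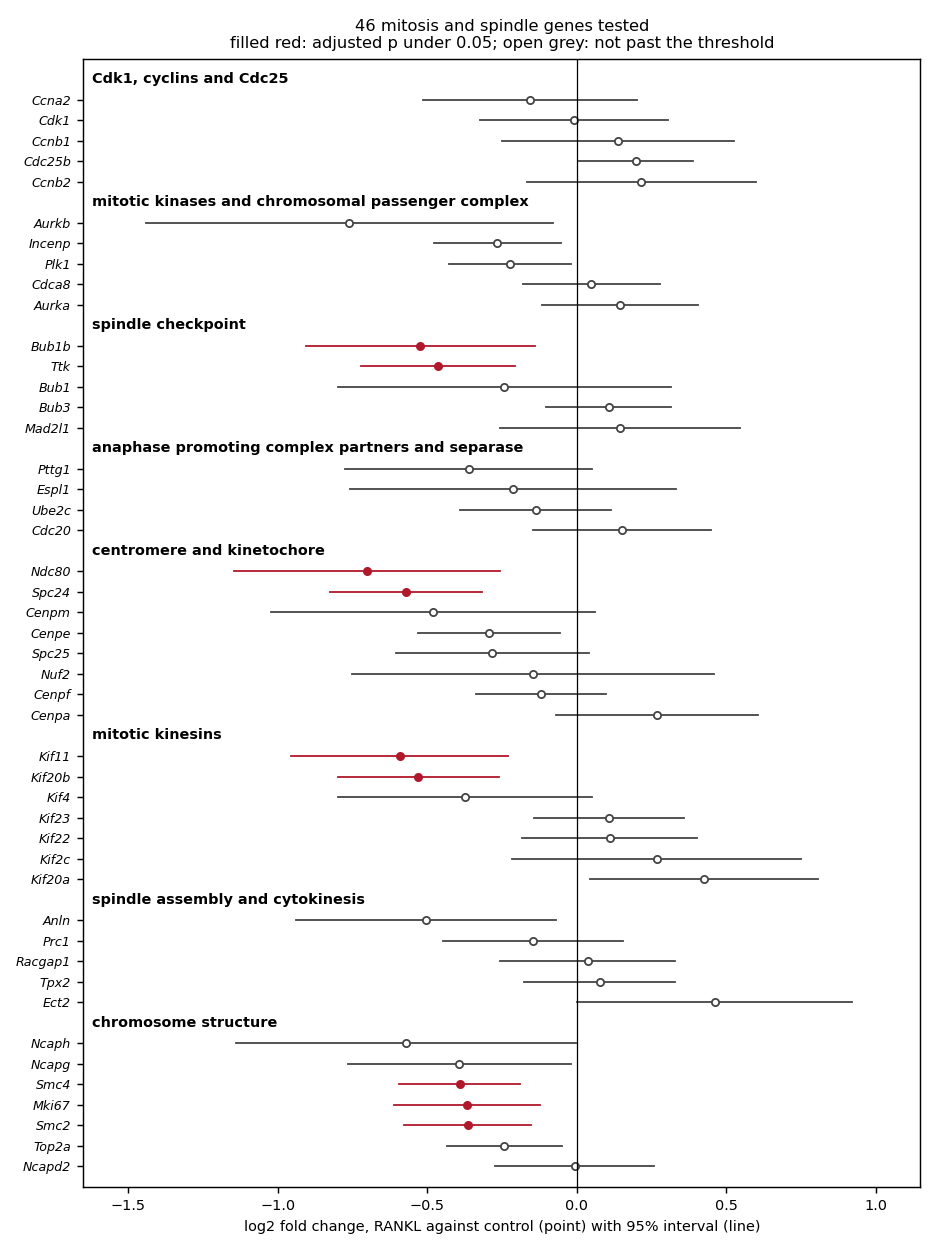
Log2 fold change of each of the 46 tested members, RANKL against control (x axis), with its 95% interval, grouped by role (y axis). The 9 filled red points passed an adjusted p of 0.05 and all lie below 0, and the 37 open points did not pass.

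The median log2 fold change of the 46 members was -0.18, beside 0.00 over all genes tested, and 30 of the 46 (65.2%) had a negative value, beside 50.0% of all genes. Over single libraries, the median member stood at -0.04, -0.04, -0.06 and 0.10 on the log2 scale relative to its control mean in control 1 to 4, and at -0.18, -0.11, -0.11 and -0.24 in RANKL 1 to 4. All 4 RANKL libraries lay below the 4 control libraries, RANKL 2 and RANKL 3 by the least, and control 4 stood above the other controls. The summed level of all 47 members was 4253, 4296, 4271 and 4740 CPM (the read count scaled to library size with TMM factors) in control 1 to 4, and 3942, 3909, 3986 and 3809 CPM in RANKL 1 to 4. The sums did not overlap between the groups, and Top2a was their largest part. In bulk RNA, fewer cells in mitosis and less mitotic RNA in each cell cannot be told apart.

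**Figure D2:**
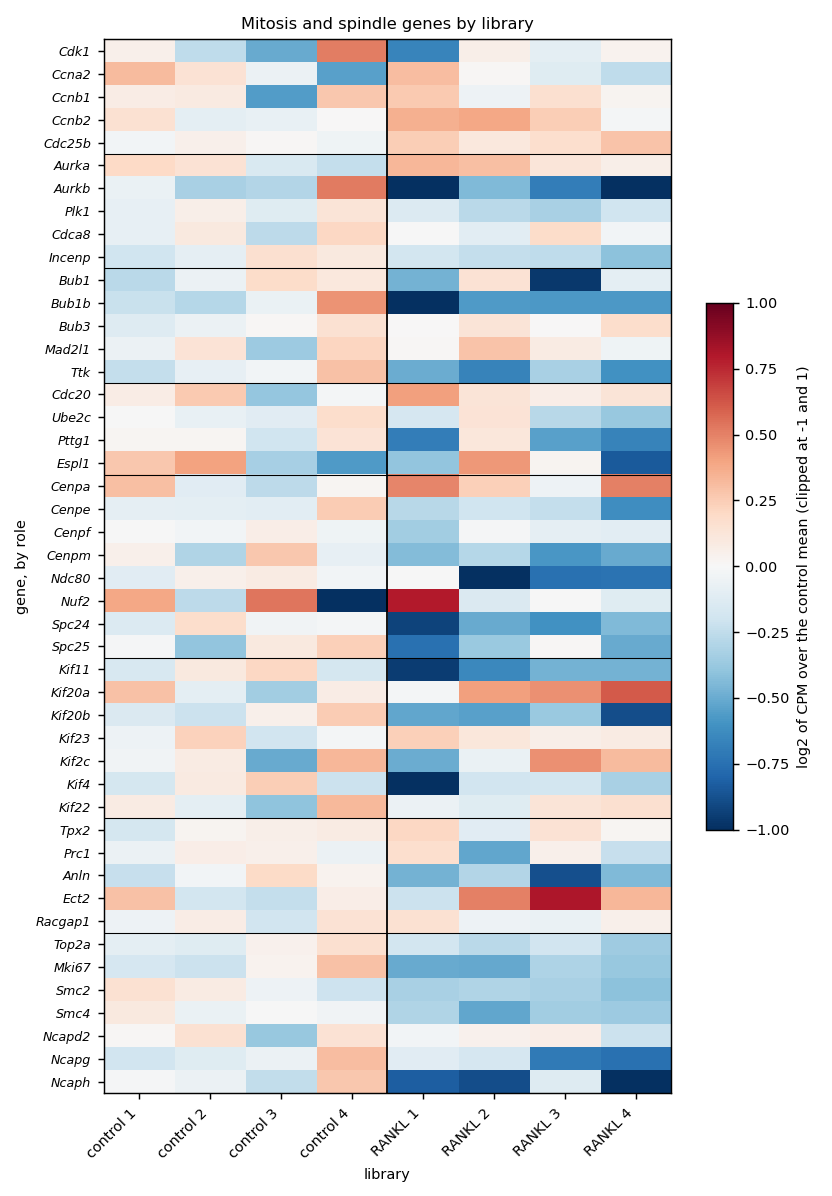
Level of each of the 46 tested members (rows, by role) in each of the 8 libraries (columns), as log2 of its CPM over its control mean, with values beyond -1 and 1 drawn at the end colours. The RANKL columns are mostly blue in the kinetochore and chromosome structure rows, and mixed in the rows of Cdk1 and the cyclins. Among the checkpoint rows they are blue for Ttk and Bub1b but not for Bub3 and Mad2l1.

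The libraries were of unequal depth, with totals of 583663 (control 4) to 7807298 (control 1) counts in the control group and 613135 (RANKL 1) to 1923354 counts in the RANKL group, so that the mean control library was 2.81 times as deep. In the shallowest pair, control 4 and RANKL 1, 1 read is worth 1.71 and 1.63 CPM before the TMM scaling. Spearman correlations were 0.958 to 0.986 within and 0.911 to 0.949 between groups, so each library ranked closest to its own group. Control 3 was less like the other deep controls. Its chi-square of counts per degree of freedom was 11.9 against control 1 and 7.96 against control 2, beside 3.77 between those 2. Against the shallow control 4 it was 2.40. Epithelial markers (Epcam, Krt8, Krt18, Cdh1, Vil1) summed to 5126 to 6023 CPM in control and 5214 to 5631 CPM in RANKL libraries, and the 5 immune markers to 3.44 to 8.87 and 3.44 to 9.69 CPM, with Cd3e and Cd79a at 0 in all 8. The 5 M cell markers (Spib, Gp2, Sox8, Tnfaip2, Ccl20) summed to 7.86 to 12.0 CPM in control and 1618 to 1882 CPM in RANKL libraries. Gp2 was at 0 in all, and the sum, which is not split by gene here, does not measure the number of M cells. The 5 stem cell markers summed to 1216 to 1629 CPM in control and 1034 to 1235 CPM in RANKL libraries, with an overlap. Among them Lgr5 fell (log2 fold change -2.22, SE 0.20, edgeR adjusted p = 3.0e-10) and Ascl2 rose (1.10, SE 0.18, adjusted p = 1.66e-05). Olfm4, Smoc2 and Axin2, the others of the 5, are given only within the sum. Sums for Paneth, goblet, enteroendocrine, tuft, enterocyte and stromal markers overlapped between the groups. The part of cell composition in the values below was not tested.

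Most promoters of the mitosis and spindle genes held 2 sequence elements. Genes of late cell cycle are known for the CHR (cell cycle genes homology region), through which the MuvB complexes act, and for CCAAT boxes bound by NF-Y. RefSeq promoter windows on GRCm38.p6, from 250 bases before to 50 bases after the start, were matched for 39 of the 47 members (none for Kif20a, Cdc25c, Ccna2, Smc4, Incenp, Spc24, Aurkb and Tpx2). Bub3, Ect2 and Prc1 had 2 windows each, 42 in all, and a gene was counted where any of its windows held the letters. The CHR letters TTTGAA or TTCGAA, on either strand, were in windows of 33 of the 39 members (84.6%), beside 16.6% of the tested genes with a window. CCAAT, on either strand, was in windows of 31 of the 39 (79.5%), beside 43.4%, and both were in those of 29 (74.4%), beside 7.02%. In 1 member window the matches of the 2 elements overlapped.

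Stretches before the start are shown for 3 members that fell and for 3 that did not pass the threshold. Bases just after the start were found in a transcript of the gene for 33 of the 42 windows. They were found for Cdk1, Cdc20 and Top2a but not for Kif11, Mki67 and Smc2, so the 2 sets of stretches may not be aligned alike. Each is written 5′ to 3′ along the gene's strand and ends before the first base of the gene in GENCODE M21. Capitals mark the CHR letters, which read TTCAAA where TTTGAA lies on the opposite strand. They also mark CCAAT, which then reads ATTGG. The members that fell are a motor, the proliferation antigen and a condensin subunit.
Kif11 chr19:37376232-37376381 plus strand: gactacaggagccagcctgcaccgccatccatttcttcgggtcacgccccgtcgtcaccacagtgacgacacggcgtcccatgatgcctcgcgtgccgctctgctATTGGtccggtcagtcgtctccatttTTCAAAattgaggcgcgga
Mki67 chr7:135716380-135716529 minus strand: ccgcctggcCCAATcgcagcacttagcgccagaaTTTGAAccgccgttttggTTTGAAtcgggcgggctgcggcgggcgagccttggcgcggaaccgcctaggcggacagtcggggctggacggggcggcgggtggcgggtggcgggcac
Smc2 chr4:52439071-52439220 plus strand: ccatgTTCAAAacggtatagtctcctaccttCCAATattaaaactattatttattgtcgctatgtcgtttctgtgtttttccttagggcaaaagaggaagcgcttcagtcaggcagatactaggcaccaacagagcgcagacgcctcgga

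The members that did not pass are the mitotic kinase, the activator of the anaphase promoting complex and the topoisomerase.
Cdk1 chr10:69352939-69353088 minus strand: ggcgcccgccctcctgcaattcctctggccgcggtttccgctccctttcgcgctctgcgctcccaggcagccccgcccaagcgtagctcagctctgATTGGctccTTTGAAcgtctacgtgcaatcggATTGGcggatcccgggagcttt
Cdc20 chr4:118437353-118437502 minus strand: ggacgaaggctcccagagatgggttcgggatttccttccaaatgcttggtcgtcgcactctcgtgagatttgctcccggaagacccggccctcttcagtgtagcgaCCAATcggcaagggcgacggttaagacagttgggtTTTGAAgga
Top2a chr11:99024190-99024339 minus strand: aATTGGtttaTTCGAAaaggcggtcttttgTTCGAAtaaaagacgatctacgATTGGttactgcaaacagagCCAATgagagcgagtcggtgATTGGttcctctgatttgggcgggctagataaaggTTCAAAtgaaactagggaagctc

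Both elements were present in members that fell and in members that did not pass, and the difference between them was not tested. CHR letters were found for 7 of 7 members that fell and for 26 of 32 members that did not pass, and CCAAT for 5 of 7 and 26 of 32. The window of Top2a held 4 CHR and 6 CCAAT matches, that of Cdk1 2 and 3, and that of Kif11 1 and 1. In the windows of 85 other mitotic genes the share with CHR letters was 45.9%, and in those of 27 DNA replication genes it was 22.2%. A match is a description of letters and not of a bound site.

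Counts by role, here and below, stand beside 12.4% of all genes tested that fell and 13.6% that rose. Cdk1 and the proteins that switch it on had small fold changes on both sides of 0. None of the 5 tested genes in the group passed the test in either direction in edgeR (1 at an unadjusted p under 0.05, higher), and their median log2 fold change was 0.14. Cdk1 (ENSMUSG00000019942), the kinase that starts mitosis, stood at 118, 95.8, 80.6 and 163 CPM in control 1 to 4 and at 72.6, 119, 107 and 118 CPM in RANKL 1 to 4. Its lowest and highest libraries were the shallow pair, and the groups overlapped along most of their range. The log2 fold change was -0.01 (SE 0.15, 95% interval -0.32 to 0.31, edgeR adjusted p = 0.977), so that a change of 2-fold lies outside the interval.

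Ccnb1, cyclin B1, the partner that Cdk1 needs to enter mitosis, was at 25.6, 25.8, 16.5 and 29.2 CPM in control and at 29.1, 23.4, 27.1 and 24.7 CPM in RANKL libraries. Control 3 was low and the other 7 libraries were mixed, for a log2 fold change of 0.14 (95% interval -0.25 to 0.53). The second B cyclin, Ccnb2, had 0.22 (-0.17 to 0.60), and cyclin A2, Ccna2, had -0.16 (-0.51 to 0.20). Cdc25b, the phosphatase that removes the inhibitory marks from Cdk1 and the most abundant gene of the group, was at 324, 341, 332 and 319.9 CPM in control and at 391, 354, 369.8 and 400.4 CPM in RANKL libraries. All 4 RANKL libraries were above all 4 control libraries, and Cdc25b was the 1 member of 46 with that pattern (13.1% of all genes tested had it). Its log2 fold change of 0.20 (SE 0.09, 95% interval 0.01 to 0.39) did not pass the test (edgeR adjusted p = 0.121).

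Among the mitotic kinases and the chromosomal passenger complex, which corrects faulty attachments, 0 of 5 genes passed the test in either direction (3 lower and 0 higher at an unadjusted p under 0.05 in edgeR). Plk1, the Polo kinase, was at 233, 257, 227 and 270.0 CPM in control and at 224, 204, 197 and 215 CPM in RANKL libraries. The groups did not overlap, but the gap between the nearest libraries was small, and the log2 fold change was -0.22 (SE 0.10, edgeR adjusted p = 0.1). Without control 3 the adjusted p was 0.0481.

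Aurka, the kinase of centrosomes and spindle poles, was at 79.6, 76.5, 62.1 and 58.5 CPM in control and at 87.2, 85.3, 75.1 and 71.9 CPM in RANKL libraries. The groups overlapped, with a log2 fold change of 0.15 (95% interval -0.12 to 0.41). Aurkb, the kinase of the passenger complex, was at 8.02, 6.71, 6.84 and 12.0 CPM in control and at 3.23, 6.19, 5.22 and 2.75 CPM in RANKL libraries, which rest on 7 to 63 and 2 to 10 reads. Each RANKL library was below each control library. Its log2 fold change of -0.76 was the lowest of all members, yet its interval was wide (SE 0.33, 95% interval -1.44 to -0.08) and the test was not passed (edgeR adjusted p = 0.0934).

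The scaffold of the same complex, Incenp, was at 255, 275, 326 and 313 CPM in control and at 257, 248, 246 and 219.7 CPM in RANKL libraries. RANKL 1 lay just above control 1, and the log2 fold change was -0.26 (SE 0.10, edgeR adjusted p = 0.0578). The adjusted p was 0.0209 without control 1, 0.0495 with the replicate number as a block and 0.0387 with depth as a covariate. Cdca8, borealin, the targeting subunit, had a log2 fold change of 0.05 (95% interval -0.18 to 0.28).

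Of the 5 spindle checkpoint genes, 2 fell and none rose. Ttk (ENSMUSG00000038379, chr9:83834689-83872389, plus strand), also known as Mps1, the kinase at the head of the checkpoint, was at 98.5, 109, 114 and 143 CPM in control and at 82.3, 73.0, 92.8 and 76.3 CPM in RANKL libraries. The highest RANKL library was below the lowest control library. RANKL lowered it by a log2 fold change of -0.46 (SE 0.13, edgeR adjusted p = 0.00604), a level 0.725 times that of control, and Ttk passed the threshold under each alternative tried.

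Bub1b (ENSMUSG00000040084, chr2:118598211-118641591, plus strand), which encodes BubR1 of the checkpoint complex that blocks Cdc20, was at 28.0, 26.8, 31.2 and 44.7 CPM in control and at 14.5, 22.0, 21.9 and 22.0 CPM in RANKL libraries. Control 4 was far above the other controls and RANKL 1 far below the other RANKL libraries, on 26 and 9 reads, and the groups did not overlap. Its log2 fold change was -0.52 (SE 0.19, edgeR adjusted p = 0.0378), and the call was lost without control 3 (adjusted p = 0.061), control 4 (0.0681), RANKL 1 (0.0908), RANKL 2 (0.0657), RANKL 3 (0.0668) or RANKL 4 (0.0733). It was also lost with DESeq2 (adjusted p = 0.116), with limma-voom (0.0689) and without the shallowest 2 libraries (0.153). Bub3, which brings Bub1 and BubR1 to kinetochores, stayed closer to control at 164, 172, 181 and 199 CPM in control and 179, 196, 179.9 and 203 CPM in RANKL libraries (log2 fold change 0.11, 95% interval -0.10 to 0.32). Mad2l1, the checkpoint protein Mad2, had 0.14 (-0.26 to 0.55), and Bub1, a kinetochore kinase with at most 12.7 CPM in a library, had -0.24 (-0.80 to 0.32).

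The genes that act at and after the release of the checkpoint did not pass the test (0 of 4 in either direction, also 0 at an unadjusted p under 0.05 in edgeR). Ube2c, the ubiquitin-conjugating enzyme of the anaphase promoting complex, was at 103, 98.2, 95.3 and 117 CPM in control and at 92.0, 114, 85.0 and 79.6 CPM in RANKL libraries. RANKL 1, RANKL 3 and RANKL 4 were below all controls and RANKL 2 was within their range, for a log2 fold change of -0.14 (95% interval -0.39 to 0.11). Cdc20, the activator that the checkpoint blocks, had 0.15 (-0.15 to 0.45). Pttg1, securin, the inhibitor of separase, had -0.36 (-0.77 to 0.05), and Espl1, separase itself, had -0.21 (-0.76 to 0.33).

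At the centromere and kinetochore, 2 of 8 genes fell, 0 rose, and 7 of 8 had a negative log2 fold change. Both genes that fell belong to the Ndc80 complex, the rod-shaped assembly that grips the microtubule. Ndc80 (ENSMUSG00000024056, chr17:71496100-71526857, minus strand), which binds the microtubule directly, was at 19.5, 21.7, 22.3 and 20.6 CPM in control and at 21.0, 9.64, 12.5 and 12.6 CPM in RANKL libraries. RANKL 1 stood at the control level, on 13 reads, and the other 3 RANKL libraries were below all controls. The log2 fold change was -0.70 (SE 0.22, edgeR adjusted p = 0.0165), and it missed the threshold with DESeq2 (adjusted p = 0.0965) and without RANKL 2 (0.0846), RANKL 3 (0.0528) or RANKL 4 (0.055).

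Spc24 (ENSMUSG00000074476, chr9:21755442-21760303, minus strand), which anchors the complex to the inner kinetochore, was at 92.3, 114, 98.8 and 99.7 CPM in control and at 53.3, 71.6, 66.8 and 74.7 CPM in RANKL libraries. The groups were well apart. Spc24 had a log2 fold change of -0.57 (SE 0.12, edgeR adjusted p = 0.000789), the lowest adjusted p of the members, and it ran from -0.63 to -0.50 as each library was left out. The partners of both within the complex did not pass the test, Spc25 with -0.28 (95% interval -0.60 to 0.04) and Nuf2 with -0.15 (-0.75 to 0.46), and whether subunits of the complex differ in response was not tested.

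Cenpe, the kinetochore kinesin that carries chromosomes to the metaphase plate and the most abundant gene of the group, was at 145, 144, 144 and 184 CPM in control and at 128, 134, 131 and 101 CPM in RANKL libraries. Control 4 was far above the other controls, RANKL 4 was the lowest, and the groups did not overlap. The log2 fold change was -0.29 (SE 0.12, edgeR adjusted p = 0.0633), and the adjusted p was 0.0435 without control 3 and 0.0276 with depth as a covariate. Cenpf had -0.12 (95% interval -0.34 to 0.10). Cenpm, of the inner kinetochore, had -0.48 (-1.02 to 0.06), and Cenpa, the centromeric histone H3 variant, had 0.27 (-0.07 to 0.61).

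Of the 7 mitotic kinesins, 2 fell and 0 rose, and the median log2 fold change was 0.11. Kif11 (ENSMUSG00000012443, chr19:37376403-37421859, plus strand), the motor Eg5 that pushes spindle poles apart, was at 27.9, 33.3, 36.0 and 27.5 CPM in control and at 16.1, 20.0, 22.4 and 22.5 CPM in RANKL libraries. Each RANKL library was below each control library. Its log2 fold change was -0.59 (SE 0.18, edgeR adjusted p = 0.013), with a call lost in DESeq2 (adjusted p = 0.0716) and with depth as a covariate (0.105) but kept without each library in turn.

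Kif20b (ENSMUSG00000024795, chr19:34922361-34975745, plus strand), a motor of late cytokinesis, was at 90.1, 85.6, 103 and 119 CPM in control and at 69.4, 68.1, 76.7 and 53.8 CPM in RANKL libraries. The groups did not overlap, and RANKL 4 was lowest. The log2 fold change was -0.53 (SE 0.13, edgeR adjusted p = 0.00308) and passed under each alternative. Its relative Kif20a, which acts at the central spindle, had 0.43 (SE 0.19, 95% interval 0.04 to 0.81, edgeR adjusted p = 0.0941), from 26.0, 19.9, 16.7 and 22.4 CPM in control and 21.0, 28.2, 29.2 and 32.4 CPM in RANKL libraries. RANKL 1 lay within the control range, and without control 1 the adjusted p was 0.0229, the single case of a member called higher. The other motors did not pass, namely Kif4 (-0.37, 95% interval -0.80 to 0.05), Kif22 (0.11, -0.18 to 0.40), Kif23 (0.11, -0.14 to 0.36) and the microtubule depolymerase Kif2c (0.27, -0.22 to 0.75).

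Of the 5 genes of spindle assembly and cytokinesis, 0 passed the test in either direction (1 lower and 1 higher at an unadjusted p under 0.05 in edgeR). Tpx2, which nucleates spindle microtubules and activates Aurora A, was at 61.9, 71.1, 72.7 and 73.9 CPM in control and at 80.7, 64.7, 77.2 and 70.8 CPM in RANKL libraries. The groups overlapped throughout, with a log2 fold change of 0.08 (95% interval -0.18 to 0.33). Racgap1, of the centralspindlin complex, had 0.04 (-0.26 to 0.33), and Prc1, which bundles midzone microtubules, had -0.15 (-0.45 to 0.15). Ect2, the exchange factor that starts the cleavage furrow, had 0.46 (0.0019 to 0.92, edgeR adjusted p = 0.136). Anln, anillin of the contractile ring, had -0.50 (-0.94 to -0.07, edgeR adjusted p = 0.0823) with groups that did not overlap, and its adjusted p was 0.047 without control 1.

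Genes of chromosome structure were the group with the most calls, 3 of 7 lower and 0 higher, and all 7 had a negative log2 fold change (median -0.37). Smc4 (ENSMUSG00000034349, chr3:69004738-69034623, plus strand), an ATPase arm of condensin, which compacts chromosomes, was at 259, 231, 240.0 and 236 CPM in control and at 195, 169, 189 and 187 CPM in RANKL libraries. The highest RANKL library was well below the lowest control library. Smc4 had a log2 fold change of -0.39 (SE 0.10, edgeR adjusted p = 0.00351) and passed under each alternative.

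Its partner Smc2 (ENSMUSG00000028312, chr4:52439243-52488260, plus strand) was at 229.7, 218, 199 and 179 CPM in control and at 165, 167, 165 and 155 CPM in RANKL libraries. The RANKL libraries lay close together below a wider control group. Smc2 had a log2 fold change of -0.36 (SE 0.10, edgeR adjusted p = 0.00888), and with depth as a covariate it was -0.27 (adjusted p = 0.136). Both arms are shared by condensin I and II. The condensin I subunits Ncapg (-0.39, 95% interval -0.77 to -0.02), Ncaph (-0.57, -1.14 to -0.0037) and Ncapd2 (-0.01, -0.27 to 0.26) did not pass, although with depth as a covariate Ncapg had -0.63 (edgeR adjusted p = 0.0409). Exons of Ncapd2 overlap Scarna10 and Gm28967 on the same strand.

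Mki67 (ENSMUSG00000031004, chr7:135689784-135716361, minus strand), the Ki-67 antigen that coats mitotic chromosomes and is used as a mark of cycling cells, was at 117, 113, 134 and 159.9 CPM in control and at 92.0, 91.5, 106 and 101 CPM in RANKL libraries. The groups did not overlap, and control 4 stood above the other controls. This gave a log2 fold change of -0.37 (SE 0.12, edgeR adjusted p = 0.0229). The call was lost without control 4 (adjusted p = 0.0617), RANKL 1 (0.0547), RANKL 2 (0.0819) or the shallowest 2 libraries (0.124).

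Top2a, the topoisomerase that untangles sister chromatids and the most abundant member, was at 728, 716, 805 and 872 CPM in control and at 688, 648, 684 and 611 CPM in RANKL libraries. The groups did not overlap, but control 2 and RANKL 1 were close to each other. Its log2 fold change was -0.24 (SE 0.09, 95% interval -0.43 to -0.05, edgeR adjusted p = 0.0587), and the adjusted p was 0.0387 with DESeq2, 0.0337 with depth as a covariate, 0.0435 without control 1 and 0.0452 without control 2. An exon of Top2a overlaps Gm23451 on the same strand.

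**Figure D3:**
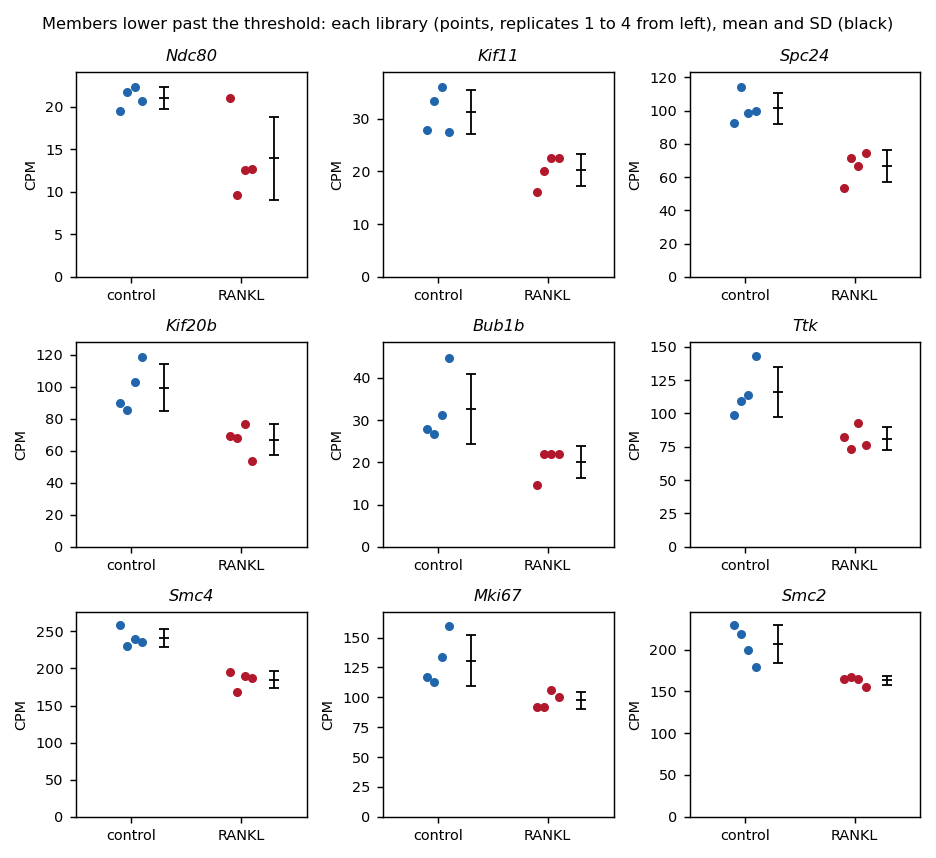
CPM (y axis, from 0) of the 9 members that fell, with 1 panel per gene, the 4 control libraries in blue, the 4 RANKL libraries in red, in replicate order, and the mean with its SD in black. In 8 of the 9 panels each red point is below each blue point, and in the Ndc80 panel RANKL 1 is at the control level.

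Among the 9 members that fell, 8 had no overlap between the groups. Their selection by a test on the same libraries favours this, so it adds no support to the calls. Of the 46 tested members, 13 were without overlap in the lower direction (11.5% of all genes tested were). Calls on Ttk, Spc24, Kif20b and Smc4 were kept under every alternative tried, and calls on 6 of the 9 (these 4, Kif11 and Smc2) without each library in turn.

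**Figure D4:**
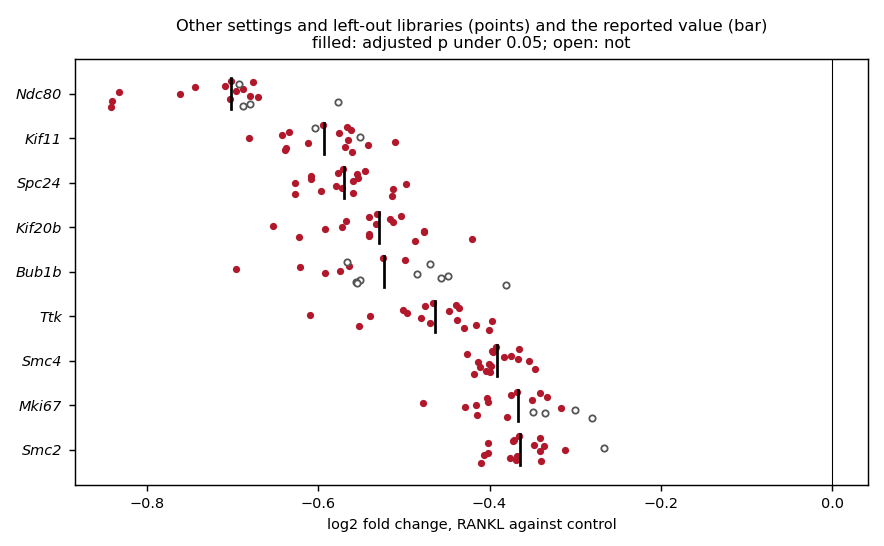
Log2 fold change (x axis) of the 9 members that fell (y axis) under each other setting and with each library left out (points, filled where the adjusted p was under 0.05), with the reported value as a bar. All points lie below 0, and open points occur for Ndc80, Kif11, Bub1b, Mki67 and Smc2.

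Intervals show which changes the members that did not pass could have had. For 34 of the 37 members that did not pass, the 95% interval lay within 2-fold of control in either direction, and the median SE of their log2 fold changes was 0.16. The members outside this bound were Aurkb, Ncaph and Cenpm, none of them above 13.8 CPM in any library. For 17 of the 37, among them Cdk1, Plk1, Aurka and Cdca8, the interval lay within 0.5 of no change on the log2 scale. The genes that fell changed by -0.36 (Smc2) to -0.70 (Ndc80), so this bound does not exclude the smaller of these changes.

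The rest of the mitotic machinery was examined through a longer list. Of 104 further mitotic genes, 94 were tested, and the median log2 fold change was -0.16. Of these, 17 fell (18.1%, against 12.4% of all genes tested) and 3 rose (3.19%, against 13.6%). The same shares of all genes stand beside the counts by group that follow. The count that fell was 9 with DESeq2, 9 without RANKL 2 and 10 without RANKL 4. Among the regulators of Cdk1, the inhibitory kinase Pkmyt1 fell by 0.71 on the log2 scale (SE 0.21, edgeR adjusted p = 0.01) and the phosphatase Cdc25a fell by 0.33 on the same scale (SE 0.11, adjusted p = 0.0299). Both calls were lost with DESeq2 (adjusted p = 0.0749 and 0.0649) and with depth as a covariate (0.147 and 0.175). Among the fits without 1 library that of Pkmyt1 was lost without RANKL 2 (0.0607) and RANKL 4 (0.0524), and that of Cdc25a without control 2, control 3, RANKL 1, RANKL 2 or RANKL 3 (0.0702 to 0.102) or the shallowest 2 libraries (0.0542).

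Transcription factors of the mitotic programme were divided. Foxm1, a forkhead activator of G2 and M genes, was at 27.2, 31.4, 22.8 and 18.9 CPM in control and at 19.4, 14.5, 18.3 and 18.7 CPM in RANKL libraries. RANKL 1 lay just above control 4, and the log2 fold change was -0.59 (SE 0.19, edgeR adjusted p = 0.0251). The call was lost with DESeq2 (adjusted p = 0.145), with the replicate number as a block (0.0536) and with depth as a covariate (0.261). It was also lost without control 2 (0.104), RANKL 2 (0.0993), RANKL 3 (0.0521) or RANKL 4 (0.0511). Exons of Foxm1 overlap Tex52 and Gm44596 on the same strand.

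Mybl2, the B-Myb subunit that turns MuvB into an activator, went the other way, from 10.8, 14.8, 8.36 and 17.2 CPM in control to 32.3, 22.0, 21.4 and 25.3 CPM in RANKL libraries. No RANKL library reached down to a control library, and the log2 fold change was 1.06 (SE 0.22, edgeR adjusted p = 0.000596). Melk, a kinase of proliferating cells, rose by 0.87 on the log2 scale (SE 0.19, adjusted p = 0.000962), from 15.0, 16.4, 15.7 and 24.1 CPM to 35.5, 31.7, 22.4 and 33.0 CPM. Its RANKL 3 library lay below control 4. Mybl2 and Melk missed the threshold with depth as a covariate (edgeR adjusted p = 0.0693 and 0.0934) and passed it under the other alternatives tried at 0.05. Aspm, a spindle pole protein, was the third gene to rise (0.39, SE 0.14, edgeR adjusted p = 0.041), a call that was lost without control 1 (0.118), control 2 (0.09), RANKL 2 (0.132), RANKL 3 (0.0627), RANKL 4 (0.101) or the shallowest 2 libraries (0.0521). It was also lost with DESeq2 (0.153), no filter (0.166), the replicate block (0.0807) and depth as a covariate (0.208).

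Cohesin, the ring that holds sister chromatids, had 4 of 13 genes lower and 0 higher, and all 13 had a negative log2 fold change. Smc3, an arm of the ring, was at 281, 273, 277 and 298 CPM in control and at 203, 176, 204 and 169.7 CPM in RANKL libraries. The gap between the groups was wide, and the log2 fold change was -0.58 (SE 0.10, edgeR adjusted p = 4.56e-05). Stag2, of the same ring, fell by 0.47 on the log2 scale (SE 0.12, adjusted p = 0.00335). Sgo1, shugoshin, which shields cohesin at centromeres, fell by 0.53 on that scale (SE 0.17, adjusted p = 0.0174), a call lost without control 1 (0.0917), RANKL 2 (0.0602) or RANKL 4 (0.114), with DESeq2 (0.0743) and with depth as a covariate (0.123). In condensin II, Ncapd3 fell by 0.70 on that scale (SE 0.15, adjusted p = 0.000501), with no overlap between 55.3 to 79.1 CPM in control and 34.4 to 39.6 CPM in RANKL libraries.

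Among 26 other centromere, kinetochore and checkpoint genes tested, 5 fell and 0 rose in edgeR. Zwilch, of the complex that recruits dynein to kinetochores, fell by 0.80 on the log2 scale (SE 0.22, adjusted p = 0.00695). The inner kinetochore genes Cenpn (log2 fold change -1.25, SE 0.37, adjusted p = 0.0125) and Cenpu (-1.04, SE 0.32, adjusted p = 0.0168) rest on 19 and 36 reads over the RANKL libraries, and both calls were lost with DESeq2 (0.0974 and 0.0592), without RANKL 2 (0.0517 and 0.0862) and without RANKL 4 (0.103 and 0.0772). That of Cenpu was also lost with depth as a covariate (0.0547) and without the shallowest 2 libraries (0.0661). Among 23 other kinesin, spindle and cytokinesis genes tested, Kif15, a motor that shares the work of Kif11, fell by 0.44 on the log2 scale (SE 0.12, adjusted p = 0.00712). Nek2, a centrosomal kinase, fell by 0.98 on the log2 scale (SE 0.34, adjusted p = 0.0341), on 24 reads over the RANKL libraries, a call lost without control 1, control 4, any RANKL library (0.0544 to 0.139) or the shallowest 2 libraries (0.1), and with DESeq2 (0.145) and limma-voom (0.0676). Of the anaphase promoting complex, 1 of 15 genes fell, namely Anapc5, at 586, 450.0, 698 and 511 CPM in control and 315, 363, 387 and 303 CPM in RANKL libraries (log2 fold change -0.72, SE 0.12, edgeR adjusted p = 1.88e-05).

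Genes of the phases before mitosis are given for comparison. Of 35 DNA replication genes tested, 15 fell (42.9%, against 12.4% of all genes tested) and 1 rose (2.86%, against 13.6%). Their median log2 fold change was -0.38. Rrm2, the S phase subunit of ribonucleotide reductase, was at 29.3, 23.3, 34.5 and 34.4 CPM in control and at 9.69, 13.1, 16.2 and 15.9 CPM in RANKL libraries, a log2 fold change of -1.03 (SE 0.20, edgeR adjusted p = 0.000248) with no overlap. The origin recognition subunit Orc1 fell by 1.47 on the log2 scale (SE 0.35, adjusted p = 0.00216) and the polymerase Pole by 1.06 (SE 0.28, adjusted p = 0.0048), whereas the polymerase Pold1 rose by 0.72 (SE 0.13, adjusted p = 0.000105).

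Among 25 G1 cyclin, CDK and E2F genes, 4 fell (16.0%, against 12.4% of all genes tested) and 1 rose (4.0%, against 13.6%). The share that fell was near that of all genes, and the median was -0.17. Ccnd2, cyclin D2, went from 3745, 3821, 4435 and 4201 CPM in control to 2498, 2411, 2389 and 2168 CPM in RANKL libraries (log2 fold change -0.78, SE 0.09, edgeR adjusted p = 1.53e-07). E2f8, a repressive E2F factor, fell by 1.26 on the log2 scale (SE 0.19, adjusted p = 3.81e-06) and E2f2 by 0.63 (SE 0.13, adjusted p = 0.000343). The one that rose was Cdkn1a, the CDK inhibitor p21 (0.40, SE 0.11, adjusted p = 0.00722), and its adjusted p was 0.0575 without RANKL 3. The difference between these lists and the mitosis and spindle genes was described and not tested.

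**Figure D5:**
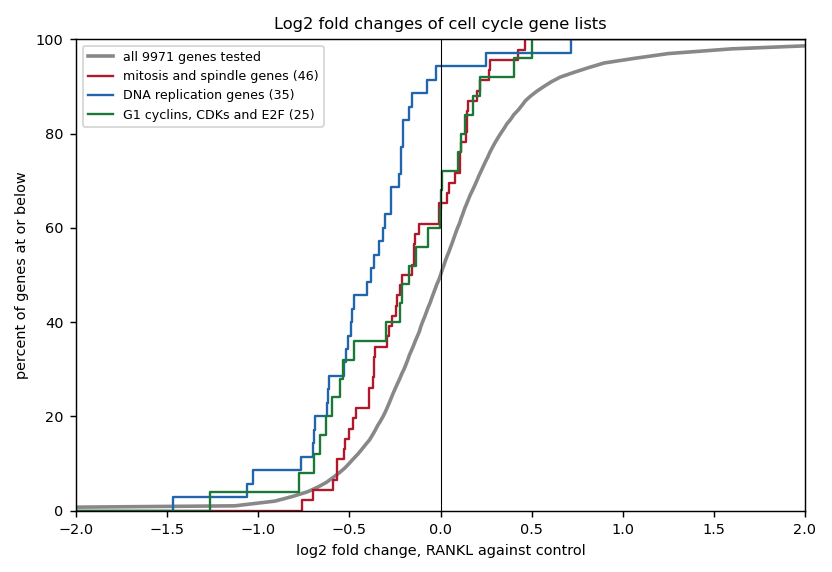
Percent of genes (y axis) with a log2 fold change at or below the value on the x axis, for all 9971 genes tested, the 46 mitosis and spindle genes, 35 DNA replication genes and 25 G1 cyclin, CDK and E2F genes. The medians are 0.00, -0.18, -0.38 and -0.17, and the DNA replication curve lies farthest to the left over most of its course.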

How the data were processed

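Gene expression was measured in 8 QuantSeq libraries, 4 control and 4 RANKL, grouped and numbered by their labels. The authors trimmed reads with BBDuk, filtered out abundant sequences (bowtie2), mapped to GRCm38 (STAR) and ran featureCounts by strand on Ensembl release 94, and the deposited values are raw counts per gene. Their own tests used DESeq2. Gene names and positions came from GENCODE M21. The test here was edgeR 4.0.16 (quasi-likelihood, TMM factors, filterByExpr, no covariate) over the 9971 genes kept, with Benjamini-Hochberg adjustment. It was run on simulated data too, with changes larger than those of the members that fell. How well it finds changes of their size was not tested. CPM use TMM-scaled totals. Alternatives were DESeq2 1.42.0, its size factors, plain library totals, limma 3.58.1 (voom), no filter, 10 counts in every library, a replicate block, a depth covariate, an adjusted p of 0.01, each library left out, and, chosen after seeing the data, the shallowest 2 left out. The labels do not say whether replicate numbers pair the libraries. Members and lists were chosen with earlier results of these data known. Values per library are given for Mki67, Top2a, Cdk1, Ccnb1, Plk1, Aurka and Aurkb, the 10 largest called changes with a mean of 5 CPM or more, any call against the members' median, and the most abundant member of each of the 8 roles, and values of any other member may be named with its role. In the other lists, up to 3 largest called changes per group and those against the list's median were named. Cell type markers were given by their sums, with those at 0 in all libraries and, outside this rule, Lgr5 and Ascl2 named singly. Nothing says that replicates were separate cultures or animals, so p-values measure only the spread between these libraries. Reads carry PCR copies, so a low count limits precision by at least its counting error.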

Additional observations from a re-analysis of the deposited data

Results flagged for a closer look

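In 8 of 142 groups of 4 libraries, 1 library lay far from the other 3, by the ratio of its gap to the range of the group, where chance at 1 in 20 gives 7.1. In 4 of the 8 it was RANKL 1, the shallowest RANKL library, with 14.5 CPM for Bub1b (the next library had 21.9), 69.4 CPM for Cdc20 (57.1), 14.5 CPM for Nuf2 (8.34) and 8.07 CPM for Kif4 (17.6). In 2 it was control 4, the shallowest control library, with 184 CPM for Cenpe (144.9) and 24.1 CPM for Melk (16.4). The others were Pttg1 in RANKL 2 with 25.5 CPM (16.2) and E2f8 in control 3 with 56.8 CPM (39.8). Their part in the results was not tested beyond the values given without each library.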

How the results depend on the processing

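The count of members that fell was 9 as reported and 7 to 11 under the other tools, filters, scalings and covariates, 7 without the shallowest 2 libraries (chosen after seeing the data) and 5 at an adjusted p of 0.01. As each library was left out, it ran from 6 to 12, the count that rose from 0 to 1, and the median from -0.22 to -0.12. Among the other mitotic genes, 3 rose and 17 fell as reported, 1 rose with depth as a covariate, and 9 fell with DESeq2 and 8 at an adjusted p of 0.01, with 2 to 4 rising and 9 to 16 falling as each library was left out. Of all genes, 1232 fell as reported, 808 with depth as a covariate and 707 at 0.01, and as each library was left out 814 (without RANKL 4) to 1234 fell and 1039 to 1367 rose. The cause of these shifts was not tested. No call on a member changed direction. The values that turned their sign were those of 9 members that did not pass the test. The log2 fold change of Cdk1 became 0.013 with library totals, 0.053 with limma-voom, 0.0073 with at least 10 counts in every library and 0.21 without the shallowest 2, and that of Ncapd2 became 0.015, 0.013, 0.0094 and 0.020 with these, and 0.024 with the replicate block. With depth as a covariate, Ccna2 became 0.043, Cdca8 -0.031, Espl1 0.053, Nuf2 0.16, Tpx2 -0.017 and Racgap1 -0.056. Nuf2 became 0.035 with the block, and Racgap1 -0.0042 with no filter. As each library was left out, the log2 fold change ran from -0.12 to 0.12 for Cdk1, -0.12 to 0.068 for Ncapd2, -0.021 to 0.22 for Ccnb1, -0.026 to 0.099 for Cdca8, -0.45 to 0.014 for Espl1 and -0.020 to 0.080 for Racgap1.

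The labels do not say that libraries of the same number are a pair. The correlations of their deviations from the group means were -0.008, -0.034, 0.104 and 0.035. The closest RANKL library had the same number for control 3 and control 4, and another number for control 1 and control 2. With 4 libraries in a group this cannot show whether a culture or batch was shared. With the replicate block 10 members fell and 0 rose. Depth limits the low members most, since 3 counts are 5.14 CPM in control 4 and 0.384 CPM in control 1.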
